A study of Mus musculus with 6 samples.

Results

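The genes described here encode 7 inhibitors of proteases, namely the cystatins Cst3, Cst7 and Cstb, the metalloproteinase inhibitor Timp2, the serpins Serpine2 and Serping1, and the protease trap A2m. They were chosen by gene symbol, and all 7 were among the 15912 rows of the deposited table. The samples were microglia, the resident macrophages of the brain, sorted from the hippocampus of male C57BL/6 mice aged 3 months. Every mouse behind these libraries had received lipopolysaccharide (LPS, an outer-membrane molecule of bacteria and a strong inflammatory stimulus) intraperitoneally at 1 mg/kg for 4 days, and tissue was taken 24 hours after the final dose. The BODIPY-high gate held lipid-droplet-rich cells and the BODIPY-low gate lipid-droplet-poor cells, with BODIPY a dye of neutral lipids and 3 libraries in each gate. Each library pooled the hippocampi of 2 mice, and both gates were drawn from the live CD11b+CD45lo fraction. Libraries of PBS-treated mice were not analysed here. The comparison asks how expression of these genes in BODIPY-high microglia differed from that in BODIPY-low microglia.

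Protease inhibitors set how far proteases act inside lysosomes, in the cytosol and in the matrix around a cell. Cystatins block cysteine cathepsins by wedging a conserved loop into the active site, and microglia are among the brain cells that secrete cystatin C, the product of Cst3. Serpins trap serine proteases in a covalent complex, TIMPs bind the zinc of matrix metalloproteinases, and alpha-2-macroglobulin, the product of A2m, cages proteases of several classes after they cut its bait region. Complexes of serpins or alpha-2-macroglobulin with a protease are cleared by endocytic receptors such as Lrp1.

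The coding stretches of the inhibitory elements are shown because they mark what the cystatins share and what sets A2m apart from them. In each cystatin the capitals are the codons of the conserved Gln-Xaa-Val-Xaa-Gly loop, searched in frame on the coding strand with the Xaa codons free and the last base of each Gln, Val and Gly codon free, so that other residues sharing those bases also match. The stretches run 5′ to 3′ and come from GENCODE M21 transcripts of mouse build mm10.
Cst3: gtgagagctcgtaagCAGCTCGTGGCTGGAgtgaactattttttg
Cst7: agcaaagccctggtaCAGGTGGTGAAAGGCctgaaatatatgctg
Cstb: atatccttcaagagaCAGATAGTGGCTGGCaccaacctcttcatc
In A2m the capitals are the codons of the thioester element that covalently tethers trapped proteases, searched likewise with the last base of each of its codons free.
A2m: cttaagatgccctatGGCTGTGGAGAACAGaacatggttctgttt
The Cst3 stretch spans the junction of exons 1 and 2 on the minus strand, between chr2:148872904-148875170. That of Cst7 starts in exon 2 on the plus strand and spans 2 exons, between chr2:150575859-150577682. That of Cstb lies in exon 2 on the plus strand at chr10:78426981-78427025. The A2m stretch lies in exon 24 of 36 on the plus strand at chr6:121668087-121668131. Of the 15 loop bases, 12 were identical between Cst3 and Cstb, 10 between Cst7 and Cstb and 9 between Cst3 and Cst7. The cystatin letters occurred in frame in 12.5% of 21562 mouse coding sequences and the thioester letters in 0.116%, so the first pattern describes the loop and is not specific to the family. The files hold counts per gene, not per isoform or base, so the values below refer to whole genes.

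Library depth was similar, with 37633089 to 39220494 recovered reads in BODIPY-high libraries and 34899413 to 36518323 in BODIPY-low libraries. BODIPY-high library 3 stood apart from the others of its gate, since the chi-square per degree of freedom against them was 91.5 and 110.5, and 29.1 between the other pair. Marker genes of other cells moved with the gate. All 10 choroid plexus markers were higher in the BODIPY-high libraries (limma, adjusted p under 0.05), and their summed level was 40053 to 52519 normalized counts there, against 313 to 2336 in BODIPY-low libraries. Of 12 border-associated macrophage markers 9 passed as higher, with sums of 23512 to 87856 in BODIPY-high and 2739 to 7992 in BODIPY-low libraries. As higher in BODIPY-high libraries, 4 of 8 astrocyte, 3 of 9 oligodendrocyte lineage and 1 of 4 mural cell and fibroblast markers also passed, and no endothelial, neuronal, neutrophil or monocyte marker did. With the library number as a block, all 12 border-associated macrophage markers passed as higher, as did 6 astrocyte, 2 neutrophil and 1 monocyte marker. None of 12 microglial markers passed limma. Their sums were 1999288 to 2682389 in BODIPY-high and 2561216 to 2950077 in BODIPY-low libraries, so the defining markers of the labelled cell type were abundant in both gates.

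Of the 7 inhibitor genes, A2m alone rose in BODIPY-high microglia and none fell by the main test. That test was limma on log2(normalized count + 1) over 12767 genes, with Benjamini-Hochberg adjustment and a call at an adjusted p under 0.05. Among all genes tested, 2.03% were called higher and 0.0235% lower. At an unadjusted p under 0.05, Serping1 was also higher and Cst3 lower, beside 8.03% of all genes higher and 2.27% lower. On recovered reads, edgeR called A2m alone, beside 1.74% of all genes called higher and 0.00783% lower. DESeq2 called A2m higher and Cst3 lower, beside 3.63% of all genes called higher and 0.251% lower. The values of the 2 gates did not overlap for A2m and Serping1, higher in BODIPY-high libraries, and for Cst3, lower there. Among all genes tested, 10.4% were higher and 5.95% lower without overlap.

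**Figure D1:**
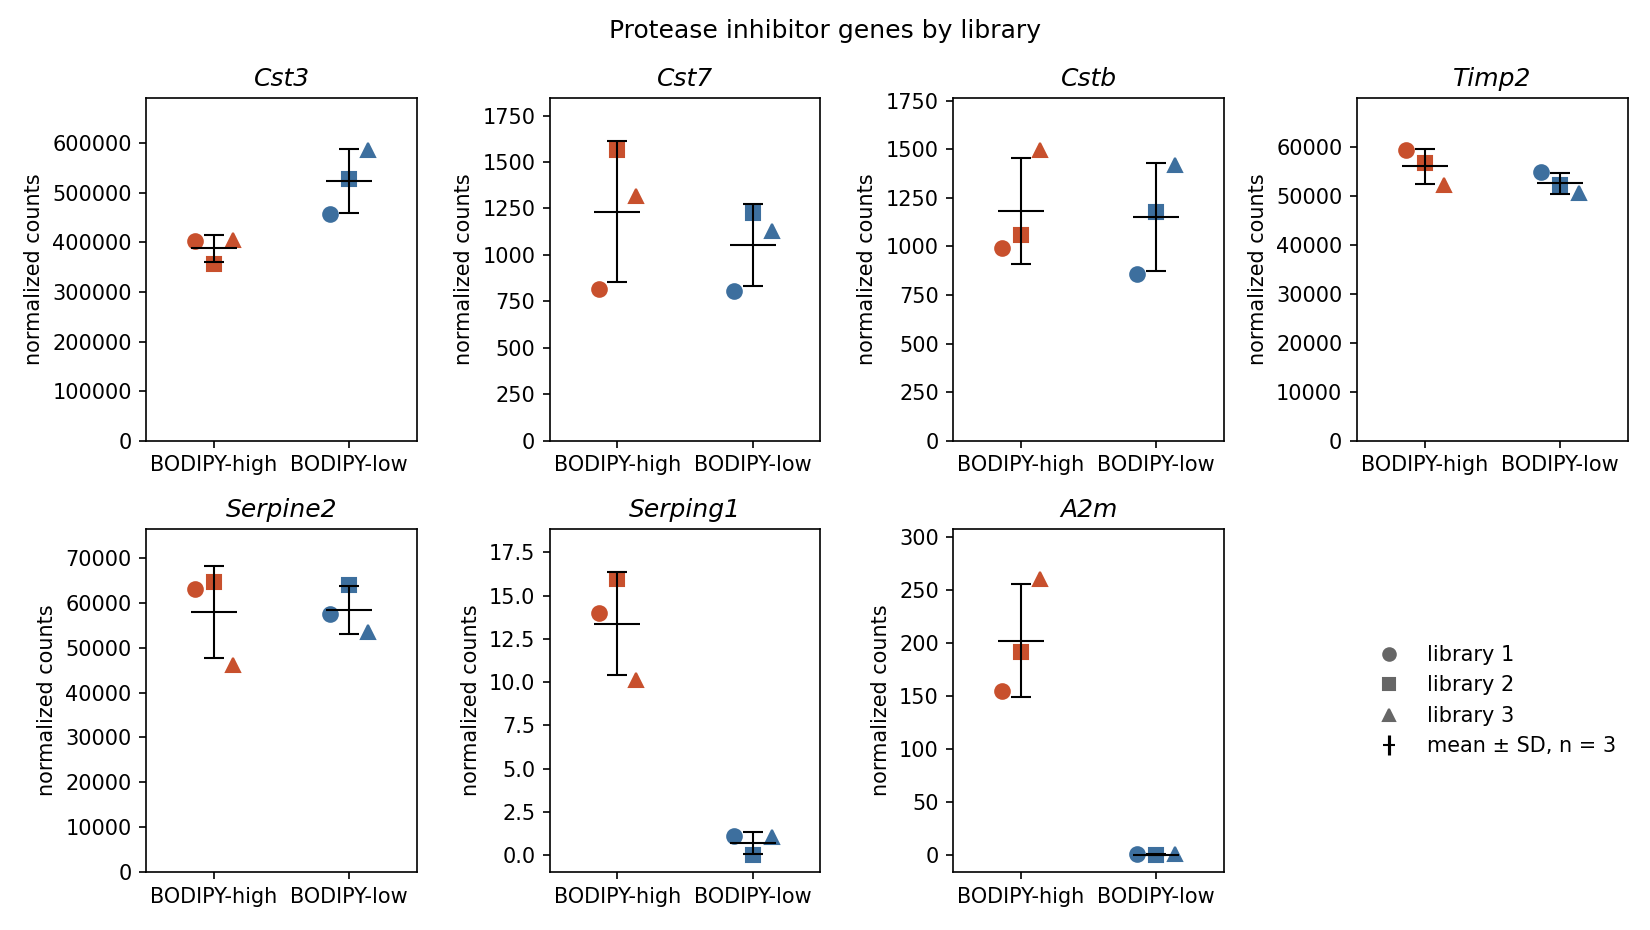
Normalized counts of each gene in the 3 BODIPY-high libraries (left in each panel) and the 3 BODIPY-low libraries (right), with marker shapes for library numbers and bars for the mean ± SD. A2m and Serping1 were near 0 in BODIPY-low libraries, the Cst3 values of the gates did not overlap, and the other 4 genes overlapped.

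**Figure D2:**
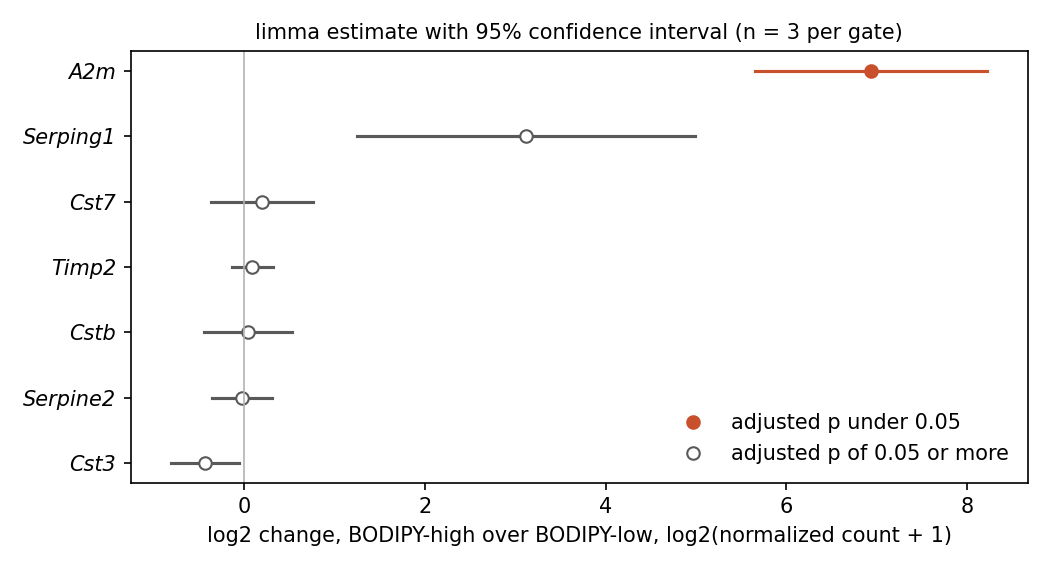
The log2 change of BODIPY-high over BODIPY-low for each gene on the log2(normalized count + 1) scale, with the 95% confidence interval from limma. A2m, at 6.93, is the 1 filled point, and the intervals of Cst7, Timp2, Cstb and Serpine2 include 0.

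A2m encodes alpha-2-macroglobulin and lies on chromosome 6 from 121635376 to 121679227 (mm10, plus strand). It had 155, 191 and 260.3 normalized counts in BODIPY-high libraries 1, 2 and 3, against 1.10, 0 and 1.05 in BODIPY-low libraries 1, 2 and 3. Every BODIPY-high library was therefore far above every BODIPY-low library. In recovered reads this was 155, 192 and 283 in the BODIPY-high libraries and 1, 0 and 1 in the BODIPY-low libraries. A count of 0 in BODIPY-low library 2 allows up to 3 reads, worth 3.09 normalized counts, so A2m is below detection there rather than shown to be absent. The mean was 202 ± 53.4 normalized counts in BODIPY-high and 0.717 ± 0.621 in BODIPY-low libraries (SD, n = 3 per gate). The ratio of reads, corrected for library scaling, was 289 (exact 95% counting interval 79.6 to 2389).

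The fitted log2 change of A2m was 6.93 ± 0.57 (SE; limma adjusted p = 0.00218), and all 3 same-numbered library pairs had the higher value in the BODIPY-high gate. The call held when any 1 library was left out, with adjusted p from 0.00132 to 0.0385. Those fits kept the genes that had passed the filter over all libraries. Without any 1 BODIPY-high library, A2m would not itself have met that filter. Since the BODIPY-low gate held 2 reads in all, the ratio moved with them: leaving out BODIPY-low library 2 gave 190, and leaving out library 1 of that gate gave 391. Without BODIPY-high library 3 the ratio was 245 and the adjusted p 0.023. A2m entered the test through the BODIPY-high libraries alone, as did 244 genes under 10 normalized counts in every BODIPY-low library, of which 51.6% were called higher. A2m and Serping1 are 2 of these 244, and their selection through the gate in which they were high limits what such a call can show.

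Although its change was large, A2m stayed a low-abundance transcript. Per kb of exon it averaged 28.8 ± 7.60 normalized counts in BODIPY-high libraries and 0.102 ± 0.0885 in BODIPY-low libraries (SD, n = 3 per gate). Its rank by level per kb was 9230 to 9858 of 12267 genes in BODIPY-high libraries and 12037 to 12129 in BODIPY-low libraries. The genes whose pattern over the 6 libraries was most like that of A2m were the neutral amino acid transporter gene Slc7a10, the tight junction gene Cldn2 and the lipocalin receptor gene Slc22a17, each at a Pearson r of 0.997 or above. Of 10451 genes compared, 100 had an r over 0.95 with A2m. These r values span 2 gates that lie apart and describe the 6 libraries only. Cldn2 is also one of the choroid plexus markers summed above. The choroid plexus sums were higher in each BODIPY-high library than in any BODIPY-low library, as A2m was. Within the BODIPY-low gate the choroid plexus sum was 313, 480 and 2336 in libraries 1, 2 and 3, while A2m had 1, 0 and 1 reads. Border-associated macrophage markers (9 of 12) and astrocyte markers (4 of 8) also passed limma as higher in BODIPY-high libraries. The part of any of these cells in the A2m value was not tested. In sorted populations, fewer cells of a type and less RNA per cell cannot be told apart.

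**Figure D3:**
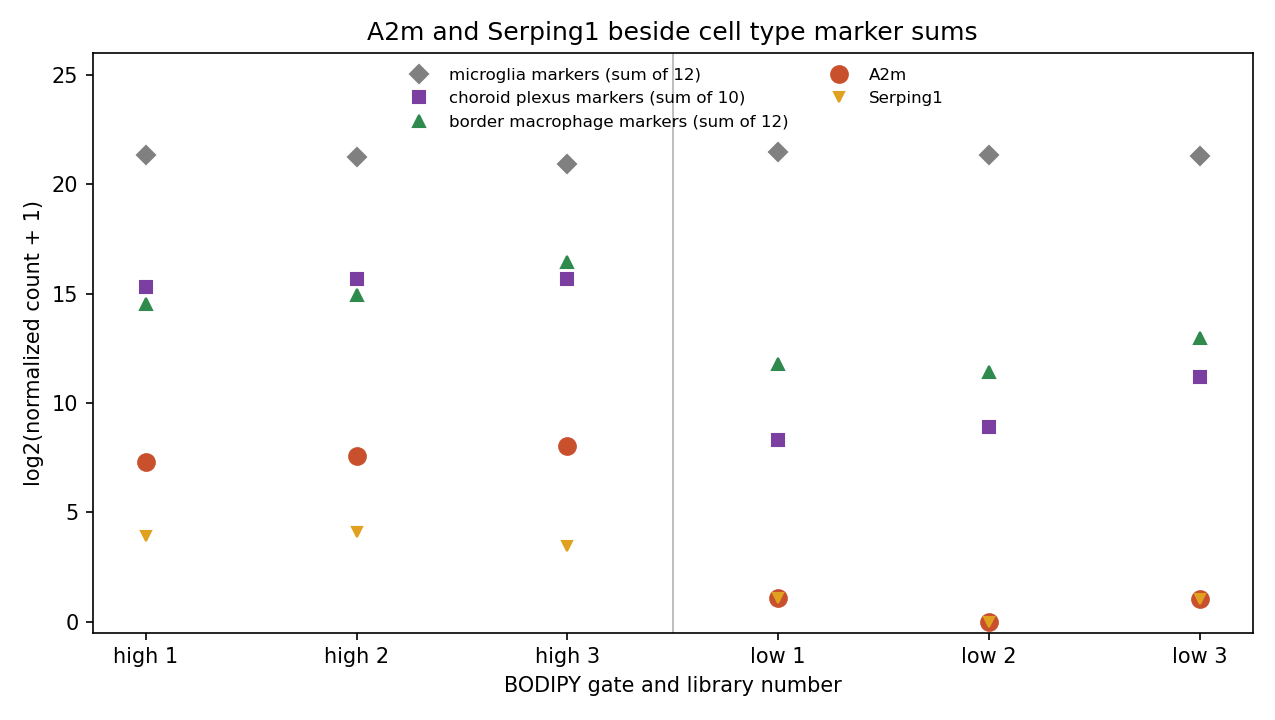
A2m, Serping1 and summed levels of 3 marker lists by library on a log2(normalized count + 1) axis, BODIPY-high libraries left of the line and BODIPY-low libraries right of it. A2m and both non-microglial marker sums are higher in every BODIPY-high library than in any BODIPY-low library. The microglial sum is 1999288 to 2682389 in BODIPY-high and 2561216 to 2950077 in BODIPY-low libraries, differences that look small on this axis.

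Serping1 encodes C1 inhibitor, the serpin that blocks the complement proteases C1r and C1s, plasma kallikrein and coagulation factor XII, and lies on chromosome 2 from 84765387 to 84775444 (minus strand). It had 14.01, 15.95 and 10.1 normalized counts in BODIPY-high libraries 1, 2 and 3, against 1.10, 0 and 1.05 in BODIPY-low libraries 1, 2 and 3. All BODIPY-high values lay above all BODIPY-low values, but they rested on 14, 16 and 11 reads in BODIPY-high and 1, 0 and 1 in BODIPY-low libraries. The ratio of reads was 18.8 (exact 95% counting interval 4.88 to 160.3), and it was 12.4 without BODIPY-low library 2. The fitted log2 change was 3.12 ± 0.83 (SE) and did not pass (limma adjusted p = 0.132). It did not pass in any alternative, where adjusted p ran from 0.0548 without a filter on low values to 0.445 without BODIPY-high library 2. The highest r over the libraries were with Ogdh, a subunit of a mitochondrial dehydrogenase, the retinol dehydrogenase gene Rdh5 and the monoamine oxidase gene Maob. Maob had 182, 310.1 and 143 normalized counts in the BODIPY-high libraries, against 5.49, 2.06 and 6.32 in the BODIPY-low libraries. Markers of non-microglial cells were also higher in the BODIPY-high libraries, and their part in the Serping1 value was not tested.

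Cst3 encodes cystatin C, a secreted inhibitor of cysteine cathepsins, on chromosome 2 from 148871722 to 148875692 (minus strand). It was by far the most abundant of the 7 genes. It had 402700.4, 356800.2 and 404387 normalized counts in BODIPY-high libraries 1, 2 and 3, against 456440.0, 528303 and 585672 in BODIPY-low libraries 1, 2 and 3. Each BODIPY-high library lay below each BODIPY-low library. The means were 387963 ± 27001 in BODIPY-high and 523472 ± 64751 in BODIPY-low libraries (SD, n = 3 per gate), a ratio of 0.741. Cst3 took 0.951 to 1.12% of the reads of a BODIPY-high library and 1.19 to 1.57% of those of a BODIPY-low library. By level per kb it ranked between 2 and 4 of 12267 genes in BODIPY-high libraries and between 1 and 2 in BODIPY-low libraries.

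The log2 change of Cst3 was -0.43 ± 0.17 (SE), with a 95% confidence interval of -0.80 to -0.052, and it did not pass limma over all genes (adjusted p = 0.389). All 3 same-numbered pairs were lower in the BODIPY-high library, with differences of -0.18, -0.57 and -0.53 on the log2 scale. With the library number as a block the adjusted p was 0.0513. DESeq2 called it lower (adjusted p = 0.0097) and edgeR did not (0.123). The call therefore depended on the test. The direction was the same in every alternative, with log2 changes from -0.52 to -0.34. Since the gates did not overlap, leaving out a library could not have turned it. Microglial markers had a median log2 change of -0.24 in the same libraries, and 0 of 12 were positive; none of the 12 passed limma or edgeR, DESeq2 and the block each called 1 lower, and 1 had an unadjusted p under 0.05. Of all genes tested, DESeq2 called 0.251% lower, the block 0.462%, and 2.27% were lower at an unadjusted p under 0.05. The part of the microglial content of the libraries in the Cst3 value was not tested. The genes of most similar pattern were the zinc finger gene Zkscan6, the ribosome assembly gene Imp3 and the ketohexokinase gene Khk, at r of 0.987 to 0.995.

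Cst7 encodes cystatin F, an inhibitor targeted to the endolysosomes of immune cells where it restrains cathepsin C, and is a marker of disease-associated microglia. It lies on chromosome 2 from 150570415 to 150578944 (plus strand). It had 817, 1563 and 1318 normalized counts in BODIPY-high libraries 1, 2 and 3, against 807, 1227 and 1128 in BODIPY-low libraries 1, 2 and 3. The ranges of the gates overlapped, and library 1 was the lowest of its gate in both. The log2 change was 0.20 ± 0.25 (SE; limma adjusted p = 0.877), with an interval of 0.775 to 1.69-fold. Cst7 was higher in 3 of 3 pairs of libraries, by 0.017, 0.35 and 0.22 on the log2 scale. Without BODIPY-high library 2 its log2 change was -0.00029. Among the genes of most similar pattern were the interferon-induced gene Ifit1, at r of 0.990, and the DNA methylation maintenance gene Uhrf1, at 0.987. Ifit1 had 354, 913 and 765 normalized counts in BODIPY-high libraries, against 325, 613 and 618 in BODIPY-low libraries. The closest was the membrane protein gene Tmem106c at 0.998.

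Cstb encodes cystatin B, the cytosolic member of the family, whose loss causes a progressive myoclonus epilepsy in humans. It lies on chromosome 10 from 78425669 to 78427622 (plus strand). It had 991, 1058 and 1495 normalized counts in BODIPY-high libraries 1, 2 and 3, against 859, 1178 and 1418 in BODIPY-low libraries 1, 2 and 3. The gates overlapped almost fully, and library 1 was lowest and library 3 highest in each. The log2 change was 0.042 ± 0.22 (SE; limma adjusted p = 0.980), and the interval reached from 0.734 to 1.44-fold. The closest patterns were those of the myosin light chain gene Myl12a, the cytochrome c oxidase subunit gene Cox6c and the calcium-binding protein gene Cib2, at r of 0.993 to 0.996. Neutrophil marker sums were 101109, 133388 and 272845 normalized counts in BODIPY-high and 86055, 188219.7 and 187606 in BODIPY-low libraries 1, 2 and 3, so they too were lowest in library 1 of each gate. Monocyte marker sums were likewise lowest there, at 9760, 21172 and 32921 in BODIPY-high and 10217, 25310 and 24922 in BODIPY-low libraries. Of 9 neutrophil markers tested, none passed limma or edgeR, 2 were higher at an unadjusted p under 0.05, DESeq2 called 1, and the block called 2 higher. Of 7 monocyte markers tested, none passed limma, edgeR or DESeq2, 2 were higher at an unadjusted p under 0.05, and the block called 1 higher. Among all genes tested, the shares higher were 8.03% at an unadjusted p under 0.05, 3.63% with DESeq2 and 4.37% with the block. The part of neutrophils and monocytes in the Cst7 and Cstb values was not tested.

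Timp2 encodes a secreted inhibitor of matrix metalloproteinases that also helps the membrane protease Mmp14 to activate pro-Mmp2. It lies on chromosome 11 from 118301069 to 118355740 (minus strand), where Cep295nl shares its span but no exon bases. It had 59278, 56589 and 52127 normalized counts in BODIPY-high libraries 1, 2 and 3, against 54851, 52115 and 50593 in BODIPY-low libraries 1, 2 and 3. Timp2 varied least of the 7 genes, with a coefficient of variation of 6.45% in BODIPY-high and 4.11% in BODIPY-low libraries, and the gates overlapped. The log2 change was 0.091 ± 0.099 (SE; limma adjusted p = 0.856), with an interval of 0.911 to 1.25-fold. It was higher in 3 of 3 pairs by 0.11, 0.12 and 0.043 on the log2 scale. Mmp14 had 4205, 4302 and 3877 normalized counts in BODIPY-high and 3838, 4374 and 3824 in BODIPY-low libraries. The ratio of Timp2 to Mmp14 in levels per kb was 20.8 ± 0.739 in BODIPY-high and 20.1 ± 1.82 in BODIPY-low libraries (SD, n = 3 per gate), a difference smaller than the spread between libraries. The closest patterns were those of the neuronal antigen gene Pnma2, Angel2 and the zinc finger gene Unk, at r of 0.980 to 0.991.

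Serpine2 encodes protease nexin 1, a serpin that inhibits thrombin and the plasminogen activators, and lies on chromosome 1 from 79794197 to 79861180 (minus strand). It had 62988, 64752 and 46105 normalized counts in BODIPY-high libraries 1, 2 and 3, against 57452, 64036 and 53560.1 in BODIPY-low libraries 1, 2 and 3. The lowest value of all 6 was in BODIPY-high library 3 and the gates overlapped. The log2 change was -0.022 ± 0.15 (SE; limma adjusted p = 0.985), with an interval of 0.781 to 1.24-fold. Without BODIPY-high library 3 the log2 change was 0.13 (adjusted p = 0.789), and without BODIPY-low library 2 it was 0.047, so the sign rested on single libraries. The closest patterns were those of the membrane protein gene Tmem9b, Pbxip1 and the Wnt pathway transcription factor gene Tcf7l2, at r of 0.989 to 0.994. Tcf7l2 was also lowest in BODIPY-high library 3.

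Per kb of exon, the 7 genes kept a wide order of levels. Cst3 averaged 306448 normalized counts per kb in BODIPY-high and 413485 in BODIPY-low libraries. Timp2 averaged 14373 normalized counts per kb in BODIPY-high and 13480.4 in BODIPY-low libraries, and Serpine2 6993 in BODIPY-high and 7041 in BODIPY-low libraries. Cstb averaged 1959 normalized counts per kb in BODIPY-high and 1910 in BODIPY-low libraries, and Cst7 1250.2 in BODIPY-high and 1069 in BODIPY-low libraries. Cstb and Cst7 were the nearest neighbours among these 5, and in each library Cstb was above Cst7. Serping1 averaged 5.75 ± 1.28 normalized counts per kb in BODIPY-high and 0.308 ± 0.267 in BODIPY-low libraries, below A2m in the BODIPY-high gate. In the BODIPY-low gate both rested on 2 reads, and their order cannot be given. Cst3 made up 98.8 to 99.2% of the summed cystatin level per kb in BODIPY-high and 99.2 to 99.4% in BODIPY-low libraries.

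The cysteine proteases that cystatins restrain were set beside them per kb. Summed over Cst3, Cst7 and Cstb, cystatin levels were 309657 ± 21246 in BODIPY-high and 416464 ± 51784 in BODIPY-low libraries, and the gates did not overlap. The sum of 10 cysteine proteases was 531333 ± 46198 in BODIPY-high and 569484 ± 8764 in BODIPY-low libraries, with overlap. The ratio of cystatins to proteases was 0.586, 0.503 and 0.674 in BODIPY-high libraries 1, 2 and 3, against 0.644, 0.726 and 0.824 in BODIPY-low libraries 1, 2 and 3. These ranges overlapped, while in each pair of the same number the BODIPY-high library had the lower ratio. The ratio of Cst3 to the cathepsin B gene Ctsb was 6.27, 4.90 and 6.39 in BODIPY-high libraries, against 8.43, 9.40 and 10.96 in BODIPY-low libraries, and did not overlap. That was fixed by the values of the genes alone, since Cst3 was lower and Ctsb higher in BODIPY-high libraries, each without overlap. Of the 10 proteases, only 2 had a positive log2 change, Ctsb among them. For cathepsin S (Ctss), an abundant microglial protease, the ratio was 1.09 ± 0.132 in BODIPY-high and 1.28 ± 0.109 in BODIPY-low libraries (SD, n = 3 per gate) and overlapped. No test was made of these sums and ratios, which were built from the described genes.

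**Figure D4:**
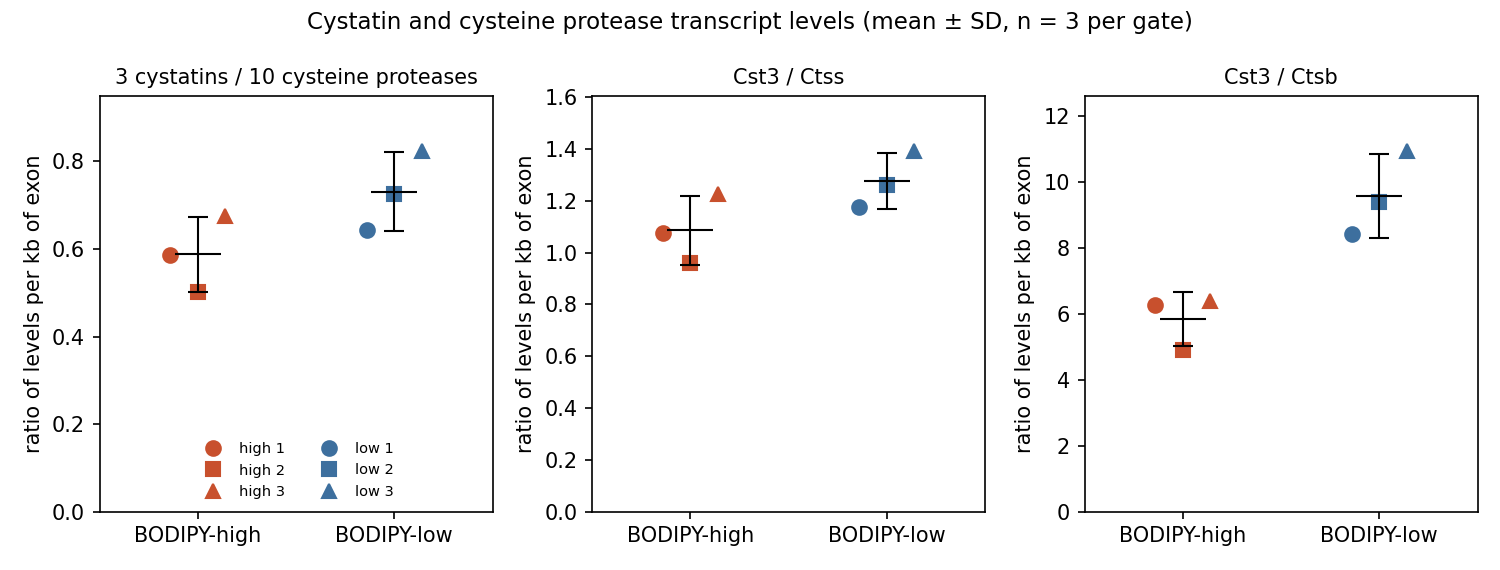
Ratios of levels per kb of exon in BODIPY-high (left) and BODIPY-low (right) libraries, with points for libraries and bars for the mean ± SD. The ratio of Cst3 to Ctsb does not overlap between gates, which follows from Cst3 and Ctsb each lying apart in opposite directions. The other pair of ratios overlap.

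Single cysteine proteases did not pass. None of the 10 tested was called by limma, edgeR or DESeq2, and none had an unadjusted p under 0.05. The lysosomal endopeptidase genes Ctsb and Ctsl had the smallest p, with log2 changes of 0.29 and -0.21 (limma adjusted p = 0.531 and 0.607). The list median was -0.14, against -0.0043 over all genes tested.

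Other genes of protease inhibitor families moved in few cases. Of 62 further inhibitor genes in the table, 37 passed the filter, 22 of them from families other than those of the described genes. Of the 37, 2 rose and none fell by limma, beside the 2.03% of all genes called higher and 0.0235% called lower. Both that rose were at low to moderate levels. Markers of choroid plexus and border-associated macrophages were also higher in the BODIPY-high libraries, and the part of such cells in these values was not tested. Timp3, the matrix-bound TIMP, had 294, 306 and 315 normalized counts in BODIPY-high libraries, against 62.5, 78.4 and 26.3 in BODIPY-low libraries (log2 change 2.57 ± 0.40, SE; limma adjusted p = 0.0168). Spint2, a membrane-bound Kunitz inhibitor of serine proteases, had 261, 305 and 346 in BODIPY-high libraries, against 15.4, 36.1 and 53.7 in BODIPY-low libraries (3.24 ± 0.44, SE; limma adjusted p = 0.0116). Neither gene's values overlapped between gates. Timp3 did not pass without any 1 BODIPY-high library (adjusted p of 0.0524 to 0.105), and Spint2 did not pass without BODIPY-high library 2 or 3 (0.0847 and 0.0566). With the library number as a block, 8 of the 37 rose and Xiap fell, beside 4.37% and 0.462% of all genes. The 8 were Timp3, Spint2, Serpinh1, Serpinb8, Serpinb6a, Serpinb1b, Wfdc2 and Wfdc17, named after their values were seen. Serpinh1 is counted by family, and its product is a collagen chaperone. Wfdc2 entered the test through the BODIPY-high libraries alone. It is among the 244 genes under 10 normalized counts in every BODIPY-low library, of which the main test called 51.6% higher. Serpinb1b has close paralogs with which reads could be shared, so its value is uncertain.

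Among serpins other than the described pair, 0 of 13 passed limma, while 5 were higher and 1 lower at an unadjusted p under 0.05, beside 8.03% and 2.27% of all genes. The tool edgeR called 1 higher, beside 1.74% of all genes. DESeq2 called 2 higher and 1 lower, beside 3.63% and 0.251% of all genes. The median log2 change was 0.78. Among the 5, Serpina3f entered the test through the BODIPY-high libraries alone. The collagen chaperone gene Serpinh1 had 40.0, 109.7 and 139.8 normalized counts in BODIPY-high and 14.3, 15.5 and 14.7 in BODIPY-low libraries (2.45 ± 0.53, SE; limma adjusted p = 0.0588, and 0.0166 with the block). Serpinb8, an intracellular serpin, had 206, 135 and 649 in BODIPY-high and 30.7, 13.4 and 93.7 in BODIPY-low libraries. BODIPY-high library 3 was the highest (limma adjusted p = 0.117, and 0.00033 with the block). How far non-microglial cells contributed to the values of these serpins was not tested.

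**Figure D5:**
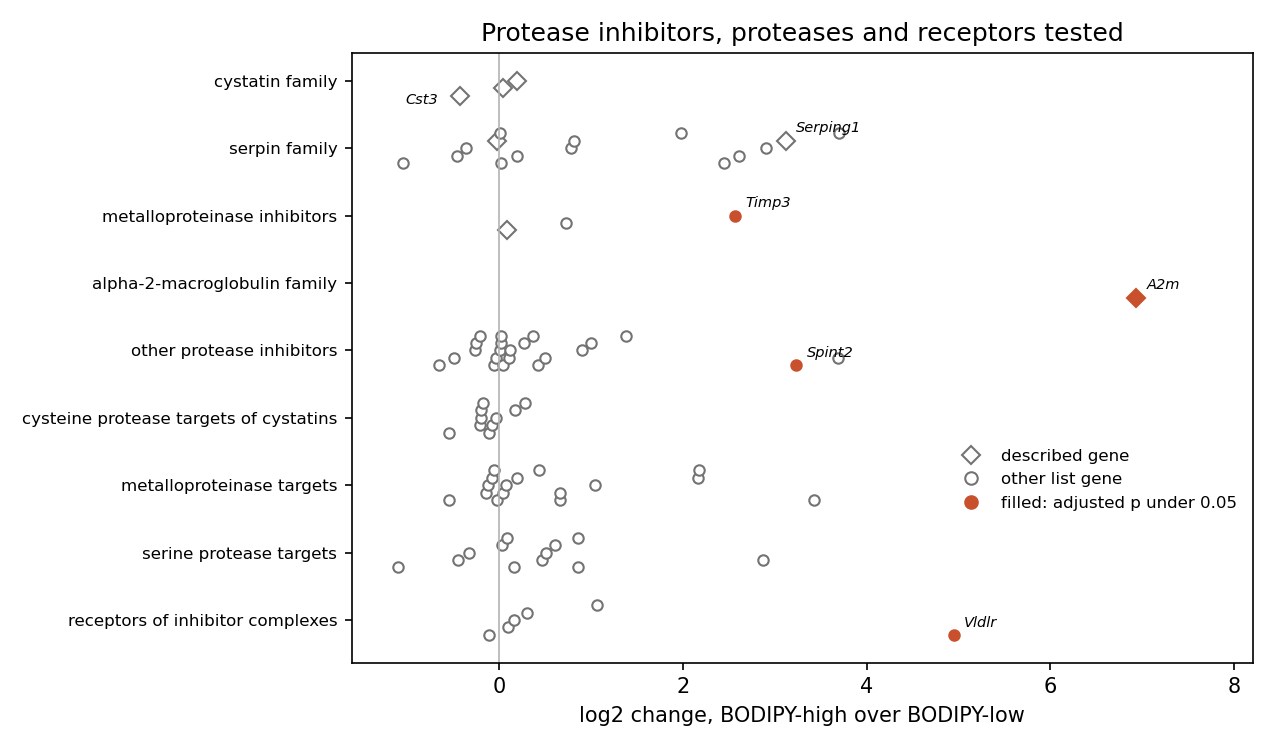
The log2 change of BODIPY-high over BODIPY-low for each tested gene of the inhibitor, protease and receptor lists, 1 point per gene, diamonds for the described genes. Filled points passed limma: A2m, Timp3, Spint2 and Vldlr.

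Metalloproteinases and serine proteases, the targets of Timp2, A2m and the serpins, did not pass. Of 16 metalloproteinase genes, none was called by limma or edgeR. At an unadjusted p under 0.05, 4 were higher, beside 8.03% of all genes, and DESeq2 called 1 higher, beside 3.63%. Mmp12, macrophage elastase, had 262, 488 and 452 normalized counts in BODIPY-high and 37.3, 93.8 and 174 in BODIPY-low libraries (log2 change 2.17 ± 0.51, SE; limma adjusted p = 0.0819, and 0.0019 with the block). Mmp9, a gelatinase also carried by neutrophils and listed among the neutrophil markers above, had 2482, 1345 and 8915 in BODIPY-high and 325, 836 and 1199 in BODIPY-low libraries (limma adjusted p = 0.217, and 0.0063 with the block). Neither gene's values overlapped between gates. Mmp2, the protease activated with Timp2, had values of 2238 to 2990.0 in BODIPY-high and 2635 to 3269 in BODIPY-low libraries, which overlapped. The part of non-microglial cells in the Mmp12 and Mmp9 values was not tested.

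Of 12 serine protease and related genes, none was called by limma or edgeR. At an unadjusted p under 0.05, 2 were higher, beside 8.03% of all genes, and DESeq2 called 1 higher, beside 3.63%. The secreted protease gene Htra1 had 46.0, 46.9 and 137 normalized counts in BODIPY-high and 6.58, 15.5 and 5.26 in BODIPY-low libraries (limma adjusted p = 0.0612, and 0.0272 with the block). Hgf, a growth factor of the plasminogen family without protease activity, had 103, 86.7 and 113 in BODIPY-high and 48.3, 52.6 and 64.2 in BODIPY-low libraries (limma adjusted p = 0.344). How far non-microglial cells contributed to the Htra1 and Hgf values was not tested.

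Of 6 receptors tested that take up or bind inhibitor complexes, 1 rose, beside 2.03% of all genes. It passed the filter through the BODIPY-high libraries alone, and is 1 of the 244 such genes of which 51.6% were called higher. The very-low-density lipoprotein receptor gene Vldlr, whose product also binds complexes of serpins, had 20.02, 49.9 and 55.2 normalized counts in BODIPY-high and 0, 1.03 and 0 in BODIPY-low libraries. This was 130 reads in BODIPY-high and 1 in BODIPY-low libraries, a ratio of 119 (exact 95% counting interval 21.01 to 4741; limma adjusted p = 0.0175). Without BODIPY-high library 2 or 3 it did not pass (0.140 and 0.115), and without BODIPY-low library 2 the remaining BODIPY-low libraries held no Vldlr read. How far non-microglial cells contributed to the Vldlr value was not tested. The main receptor of alpha-2-macroglobulin complexes, Lrp1, had 12991, 11810 and 10071 in BODIPY-high and 15318, 12556 and 10115 in BODIPY-low libraries, which overlapped (adjusted p = 0.896). Plaur, the urokinase receptor gene, had 1468, 1227 and 1373 in BODIPY-high and 999.5, 1383 and 954 in BODIPY-low libraries, which overlapped (adjusted p = 0.605).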

How the data were processed

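RNA of about 10000 sorted cells per sample was sequenced. FastQC 0.11.4, alignment to mm10 and counting per gene with STAR 2.5.3a, and DESeq2 are what the series' design text gives for the authors' processing. The submitters' processing notes list mm9 and mm10. For the annotation and the strand setting the text states nothing (not given in the sources used here). Values in the deposited table are a normalized signal, that is, gene counts scaled by 1 factor for each library. All values (100%) were whole multiples of 1 step per library within 0.05 of a read, which gave back whole reads.

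The main test was limma 3.58.1 (R 4.3.3) with trend on log2(value + 1), gate as the only term, two-sided, over 12767 genes with at least 10 in at least 3 libraries. Fold changes on this scale understate changes of low genes. Alternatives were edgeR 4.0.16 and DESeq2 1.42.0 on recovered reads, a pseudocount of 10, no filter, TMM scaling, the library number as a block, and each library left out. Fits with libraries left out kept the genes that had passed the filter over all libraries. Libraries of the same number deviated together (r of 0.354, 0.244 and 0.363), so the numbers were taken to pair them. This pairing entered the block alternative and the differences by pair. The share of all genes with 3 of 3 pairs in the same direction was not computed, so such counts describe single genes only. The main test left it out. The labels do not say whether samples are separate pools of animals, and the p-values therefore reflect only sample-to-sample spread, which may be technical. Counting intervals and the floor of 3 reads cover counting error only.

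Levels per kb used exon lengths of GENCODE M21 (mm10), in which 15281 symbols matched; 23 rows named as dates were kept in the fit. Genes named from each list were up to 4 that passed, or the 2 of smallest p, with Lrp1 and Plaur always. Ctss, Mmp14 and Mmp2 were named beside their inhibitors, outside this rule. A gene that the rule would name is not reported here. The most similar patterns were the 3 of highest Pearson r over 6 libraries among genes of mean 50 or more. The genes and lists were chosen with earlier results of these data known.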

Additional observations from a re-analysis of the deposited data

How the results depend on the processing

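A2m was the 1 described gene called higher in the main test and in all 13 alternatives, with log2 changes from 4.28 to 8.16. No described gene was called lower, except that DESeq2 called Cst3 (1). Log2 changes that turned sign were never called: with single libraries left out Cst7 ran from -0.00029 to 0.47, Cstb from -0.15 to 0.21 and Serpine2 from -0.11 to 0.13, and Serpine2 had 0.074 with both libraries numbered 3 left out, a setting chosen after seeing the data. Further inhibitors called higher were 2 in the main test, 4 with edgeR, 5 with DESeq2, 8 with the replicate block and 0 to 3 with a library left out; lower, 0, and 1 with DESeq2 and 1 with the block. Wfdc2, which passed the filter through the BODIPY-high libraries alone, is in the counts of edgeR, DESeq2 and the block. Proteases and receptors called higher were 1, then 3 with DESeq2, 4 with the block and 2 without a filter on low values. They were 0 without the libraries numbered 3 and 0 to 2 with a library left out. Of all genes, 259 were higher and 3 lower. These were 464 and 32 with DESeq2, 222 and 1 with edgeR, 558 and 59 with the block, 117 and 0 without the libraries numbered 3, and 15 to 271 and 0 to 2 with a library left out, where 15 was without BODIPY-high library 2. The count higher moved by over 1.5 times without each library (15 to 169) except BODIPY-low library 3. The block changed no call of the 7 genes. The cause of these differences was not tested. TMM scaling moved the median of all genes by -0.012. Depth limits Serping1 most, with 41 reads in BODIPY-high and 2 in BODIPY-low libraries.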

Other observations

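Of 25 inhibitor genes in the table that did not pass the filter on low values, 18 had the higher mean in BODIPY-high libraries. The higher mean was in BODIPY-low libraries for 6, and 1 was at 0 throughout. The same share over all genes below the filter was not computed, so this count cannot be read as a trait of inhibitors. Genes with reads numbered 14590 to 15088 in BODIPY-high and 14031 to 14193 in BODIPY-low libraries. The acute-phase serpin gene Serpina3n had 1.00, 5.98 and 10.1 normalized counts in BODIPY-high libraries 1, 2 and 3, against 0, 1.03 and 0 in BODIPY-low libraries. Serpina3g, another member of that serpin cluster, had 0, 16.0 and 67.1 in BODIPY-high and 1.10, 1.03 and 4.21 in BODIPY-low libraries, and most of it was in BODIPY-high library 3. Itih3, a chain of the inter-alpha-trypsin inhibitor, had 1.00, 13.96 and 52.4 in BODIPY-high and 0, 2.06 and 0 in BODIPY-low libraries. Timp1, the inducible TIMP, had no read in the BODIPY-low libraries and 4.004, 0 and 1.84 in the BODIPY-high libraries. In the other direction, the serpin gene Serpinb12 had 0, 3.99 and 7.36 in BODIPY-high and 1.10, 21.7 and 3.16 in BODIPY-low libraries. Serpine3, another serpin gene, had 7.01, 7.98 and 2.76 in BODIPY-high and 10.97, 13.4 and 4.21 in BODIPY-low libraries, which overlapped. These genes were not tested, and their names were chosen after their values were seen.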
